A study of Mus musculus with 5 samples.

Results

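The genes described here are 10 genes of bone morphogenetic protein (BMP) signalling and its modulators: Bmp1, Bmp4, Bmpr1a, Bmpr2, Id1, Id2, Id3, Grem1, Smoc1 and Smoc2. They were measured on arrays of mouse embryonic fibroblasts (MEFs) of strain C57BL/6 that lack Dicer. All 5 arrays share the loss of Dicer, the nuclease that makes mature microRNAs, so no array shows cells with Dicer. In the knockdown group 2 arrays received small interfering RNA (siRNA) against TARBP2, which binds double-stranded RNA and works beside Dicer. One of them is siTARBP2-1 and the other siTARBP2-2, which the series' design text calls independent siRNAs. In the control group 3 arrays received control siRNA (siControl-1 to siControl-3), and RNA of all groups was taken 48 hours after transfection. The labels do not say whether the control siRNAs differ or whether arrays come from separate cultures, so the p-values measure a spread between samples that may be technical. The design text of the series speaks of metastatic cells and mock transfection, and the labels of MEFs and control siRNA.

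Members were matched by gene symbol, and 9 of the 10 had a probe, 15 probes in all among 25697. No probe was annotated as Smoc2, which was not analysed here. Of the 15 probes 13 were above background on at least 2 arrays, and these cover the 9 genes, among 8927 genes tested in the series. The list was chosen from genes whose earlier results on these arrays were known, with Smoc1 chosen by its difference between the siRNAs. The calls below are therefore descriptions of these arrays, and Smoc1 is given with no test and left out of the counts of calls, which are over the other 8.

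BMPs are secreted ligands that bind pairs of type I and type II receptors on the cell surface. The receptors phosphorylate SMAD1, SMAD5 and SMAD9, which enter the nucleus with SMAD4 and switch on target genes, among them the ID genes. ID proteins have a helix-loop-helix but no DNA-binding basic region, and hold E proteins away from DNA. In fibroblasts the pathway is known for its part in matrix production and in the choice of bone or cartilage fates. Secreted proteins such as gremlin bind the ligands and keep them from their receptors.

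With siTARBP2-1, 3 of the 8 genes tested fell against control, where 3.78% of all genes tested were called lower. They were the targets Id2, to 52.1% of control on its brightest probe, and Id1, to 54.5%, and the ligand Bmp4, to 71.4%. None of the 8 rose (0), where 3.88% of all genes were called higher. The modulator Smoc1, which was chosen by its difference between the siRNAs, had 36% of the control level with siTARBP2-1 and 136% with siTARBP2-2. With siTARBP2-2 limma called 0 of the 8, where 4.27% of all genes tested were called. Read from the brightest probe of each gene, Id1, Id2 and Bmp4 lay within 0.04 of the control mean on the log2 scale. The dimmer Id2 probe had -0.29. The receptor Bmpr1a and the ID gene Id3 passed in neither comparison, with log2 values of 0.02 and -0.01 with siTARBP2-1. Bmp1, the protease, was above all control arrays with each siRNA, as were 16.2% of all genes tested, and did not pass the test.

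**Figure D1:**
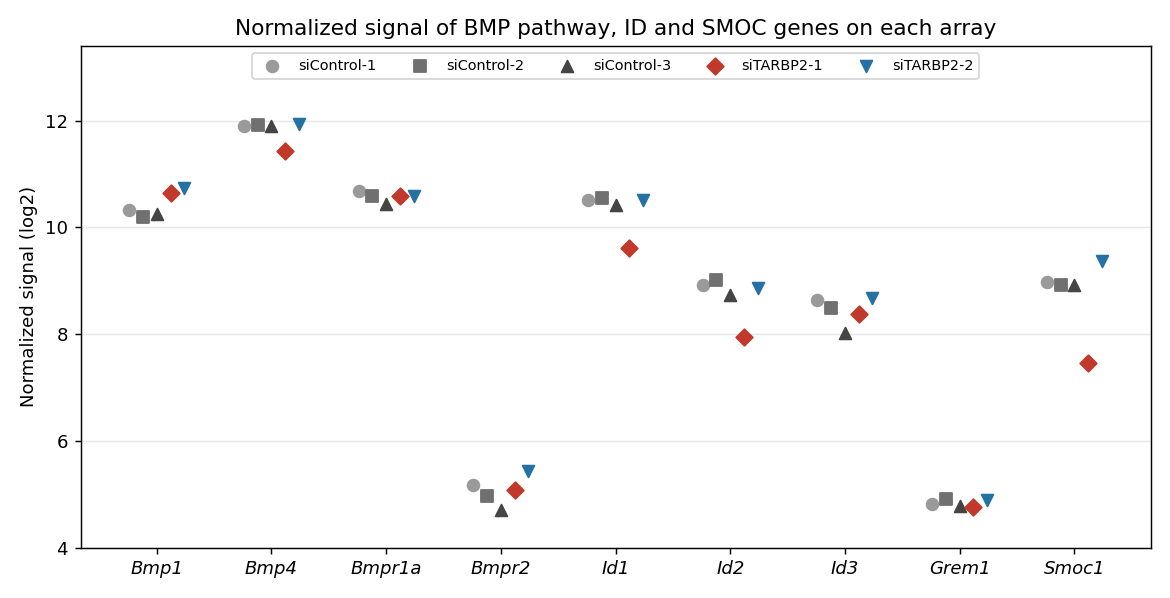
Normalized log2 signal (vertical axis) of the 9 measured genes on each of the 5 arrays, for the probe with the highest mean of each gene. Grey symbols are control arrays, the red diamond siTARBP2-1 and the blue triangle siTARBP2-2. For Smoc1, Id1, Id2 and Bmp4 the red diamond lies below every other symbol, and for Bmp1 both coloured symbols lie above the grey ones.

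On all arrays together, the raw signal had a median of 79 to 81.9 and 12445 to 13051 probes were above background. Tarbp2 itself had 28.7% of the control level with siTARBP2-1 and 20.4% with siTARBP2-2. A marker was taken as detected if above background on 2 or more arrays. Of 14 fibroblast markers with a probe, 10 were detected, among them Col1a1, Col3a1, Pdgfra and Vim, while Thy1, Lum, Fap and Postn were not. Of 7 endothelial markers 0 were detected, of 5 blood cell markers 1 (Cd14), and of 8 epithelial markers 5 (Cdh1, Krt8, Krt18, Krt19 and Cldn3). Only 3 of these epithelial markers were above background on all 5 arrays, and Cdh1 was so on neither knockdown array. Of 6 pluripotent cell markers 2 were detected (Pou5f1 and Sox2). Cldn3 rose with siTARBP2-1 by 1.07 on the log2 scale, and of 4 detected cartilage and bone markers Col10a1 rose by 1.41. Of the 10 fibroblast markers 3 fell with siTARBP2-1 (Col1a1, Col3a1 and Pdgfra) and 1 with siTARBP2-2 (Col1a1), and 2 differed between the siRNAs (Col3a1 and Pdgfra). Of all genes tested, 3.78% were called lower and 3.88% higher with siTARBP2-1. In either direction 4.27% were called with siTARBP2-2 and 7.08% between the siRNAs. The summed raw signal of the 14 fibroblast markers with a probe was 14320 with siTARBP2-1, 16373 with siTARBP2-2 and between 15844 and 16784 in control. Interferon response genes, which rose with siTARBP2-1 (16 of 17) and of which 4 fell with siTARBP2-2, also separate these arrays. The part of these markers and genes in the values below was not tested, and fewer cells of a type cannot be told apart from less RNA per cell.

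Of the ligands and their processing enzymes, Bmp4 is the member that encodes a BMP ligand. Its probe ILMN_1215252 had raw signals of 4064.4, 4045 and 3809.2 on siControl-1 to siControl-3, 2566.5 with siTARBP2-1 and 4155.5 with siTARBP2-2. After normalization these were log2 values of 11.91, 11.92 and 11.91 in control, 11.42 with siTARBP2-1 and 11.95 with siTARBP2-2. The siTARBP2-1 array lay below all control arrays and the siTARBP2-2 array just above them. Against the control mean, Bmp4 fell with siTARBP2-1 by 0.49 on the log2 scale (SE 0.11; limma, adjusted p = 0.044). With siTARBP2-2 the difference was 0.04 (95% confidence interval -0.22 to 0.29). The control arrays differed by an SD of 0.00519 for Bmp4, far below the SE that limma assigns by sharing spread across probes. The call for siTARBP2-1 ended without siControl-2 (limma, adjusted p = 0.138) and without siControl-3 (adjusted p = 0.0828), with differences of -0.48 and -0.49.

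Bmp1, despite its name, encodes a metalloprotease that trims procollagens and cleaves the BMP inhibitor chordin. Its strongest probe, ILMN_2989955, had raw signals of 1411.7, 1273.8 and 1223.7 in control, 1514.1 with siTARBP2-1 and 1827.4 with siTARBP2-2. The normalized log2 values were 10.33, 10.20 and 10.24 in control, 10.65 with siTARBP2-1 and 10.74 with siTARBP2-2, so the groups did not overlap. Among all genes tested, 16.2% had both knockdown arrays above every control array and 15.1% had both below. Over both siRNAs the log2 difference was 0.44 (SE 0.11; limma, adjusted p = 0.205), with 0.39 for siTARBP2-1 (adjusted p = 0.0931) and 0.48 for siTARBP2-2 (adjusted p = 0.0695). It passed for siTARBP2-1 under 4 of 15 other settings and for siTARBP2-2 under 6. The other 2 kept probes of Bmp1 gave similar values, ILMN_1218116 with 0.44 and 0.37 and ILMN_2713538 with 0.45 and 0.34 for siTARBP2-1 and siTARBP2-2. The remaining probe, ILMN_1255558, was above background on 1 array and was not tested.

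The receptors were measured with unequal precision. Bmpr1a encodes a type I receptor kinase. Its probe ILMN_1251119 had log2 values of 10.68, 10.59 and 10.44 in control, 10.59 with siTARBP2-1 and 10.59 with siTARBP2-2, and both knockdown arrays lay inside the control range. The log2 difference was 0.02 with siTARBP2-1 (95% confidence interval -0.30 to 0.33) and 0.02 with siTARBP2-2 (-0.29 to 0.33). The second probe, ILMN_2653312, gave -0.08 and -0.11. Bmpr2, the type II receptor, was close to background: ILMN_2614324 had raw signals of 87.6, 85.1 and 76.3 in control, 85 with siTARBP2-1 and 95.3 with siTARBP2-2. Its log2 difference was 0.13 with siTARBP2-1 and 0.48 with siTARBP2-2 (SE 0.18; limma, adjusted p = 0.177), and at this signal no change was detectable. A further Bmpr2 probe, ILMN_2614322, was above background on no array (0).

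Smoc1 encodes a secreted, calcium-binding matrix protein that modulates BMP signalling, known as an inhibitor from work in Xenopus. Its probe ILMN_1225376 had raw signals of 583.4, 553.4 and 512.1 in control, 213.8 with siTARBP2-1 and 744.9 with siTARBP2-2. The normalized log2 values were 8.97, 8.91 and 8.92 in control, 7.46 with siTARBP2-1 and 9.38 with siTARBP2-2. The control arrays stood close together, with siTARBP2-1 far below and siTARBP2-2 above all of them. In the authors' quantile normalized intensities the order was the same, with 546.3 to 566 in control, 233.6 with siTARBP2-1 and 732.4 with siTARBP2-2. Against the control mean the log2 difference was -1.48 (SE 0.11) with siTARBP2-1 and 0.45 (SE 0.11) with siTARBP2-2. Smoc1 was the member with the widest range over the arrays, 1.92 on the log2 scale, and it is the difference between the siRNAs that chose it. Grem1, which encodes the antagonist gremlin, had raw signals of 78.1, 83.3 and 78.1 in control, 77 with siTARBP2-1 and 81 with siTARBP2-2. These lie at background: of the 4 arrays with a usable detection p-value of their own, 1 had Grem1 above it. No level or change of Grem1 was detectable.

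The ID genes are direct transcriptional targets of BMP-activated SMADs. Id1 had raw signals of 1594.9, 1601.9 and 1368.2 in control, 761.4 with siTARBP2-1 and 1572.7 with siTARBP2-2 (probe ILMN_2672190). On the log2 scale these were 10.52, 10.55 and 10.41 in control, 9.62 with siTARBP2-1 and 10.51 with siTARBP2-2. The siTARBP2-1 array was below all control arrays, and the siTARBP2-2 array lay inside their range. Against the control mean, Id1 fell by 0.88 with siTARBP2-1 (SE 0.12; limma, adjusted p = 0.00831). The difference with siTARBP2-2 was 0.02 (95% confidence interval -0.26 to 0.29).

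Id2 followed the same order of arrays. Its probe ILMN_1228557 had raw signals of 565.3, 590.6 and 458.2 in control, 278.6 with siTARBP2-1 and 535 with siTARBP2-2. The log2 values were 8.92, 9.02 and 8.72 in control, 7.95 with siTARBP2-1 and 8.86 with siTARBP2-2. Again siTARBP2-1 was below every control array and siTARBP2-2 among them. Id2 fell by 0.94 with siTARBP2-1 (SE 0.14; limma, adjusted p = 0.0129), and the difference with siTARBP2-2 was -0.03 (95% confidence interval -0.36 to 0.31). The dimmer Id2 probe ILMN_2887239, with 116 ± 8.15 raw units in control (SD, n = 3), had -0.50 with siTARBP2-1 (limma, adjusted p = 0.148) and -0.29 with siTARBP2-2, and passed in neither comparison.

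Id3 did not share this pattern. Its probe ILMN_2687169 had log2 values of 8.64, 8.50 and 8.03 in control, 8.38 with siTARBP2-1 and 8.67 with siTARBP2-2. The control arrays were spread widely (SD 0.323), siTARBP2-1 lay inside their range and siTARBP2-2 at its upper edge. The log2 difference was -0.01 with siTARBP2-1, and its 95% confidence interval, -0.54 to 0.52, does not reach the -0.88 of Id1 or the -0.94 of Id2. No test set Id3 against the other ID genes.

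The promoter sequences of Id2 and Bmp4, which fell with siTARBP2-1, and of Id3, which did not pass the test, are shown to compare the stretch next to the start of these genes. They hold the 250 bases before the annotated start, on the gene's strand from 5′ to 3′, from RefSeq on build GRCm38.p6, whose table matched 6 of the 10 members. Capitals mark GGCGCC, a motif bound by SMAD1 and SMAD5, and CAGAC, the SMAD box, searched on both strands. The Id2 stretch is chr12:25096093-25096342 on the minus strand, that of Id3 chr4:136143572-136143821 on the plus strand, and that of Bmp4 chr14:46390670-46390919 on the minus strand.
Id2: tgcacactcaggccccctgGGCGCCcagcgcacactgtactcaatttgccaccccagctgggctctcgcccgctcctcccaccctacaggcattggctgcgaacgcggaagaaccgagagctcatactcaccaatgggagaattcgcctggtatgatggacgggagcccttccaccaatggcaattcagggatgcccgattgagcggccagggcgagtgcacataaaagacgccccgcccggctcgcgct
Id3: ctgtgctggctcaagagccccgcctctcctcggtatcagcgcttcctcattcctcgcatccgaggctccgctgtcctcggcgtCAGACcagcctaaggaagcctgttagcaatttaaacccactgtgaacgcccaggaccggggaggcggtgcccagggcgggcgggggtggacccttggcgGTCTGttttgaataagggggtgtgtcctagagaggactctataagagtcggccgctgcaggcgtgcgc
Bmp4: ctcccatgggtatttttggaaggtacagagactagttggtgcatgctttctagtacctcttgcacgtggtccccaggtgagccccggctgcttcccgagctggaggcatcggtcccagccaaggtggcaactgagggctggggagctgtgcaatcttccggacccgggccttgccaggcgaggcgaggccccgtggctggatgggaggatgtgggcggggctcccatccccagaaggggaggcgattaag
GGCGCC stands 1 time in the Id2 stretch, at -231 from the start. It is in 4 of the 6 member promoters, also in those of Bmpr1a, Bmpr2 and Grem1, which passed no test. Of the 32851 promoters counted, which leave out part of the genome, 9.59% hold it. CAGAC or its reverse complement stands 2 times in that of Id3. It is in 2 of the 6 member promoters, also in that of Grem1, and in 42.2% of the promoters counted. The Bmp4 stretch holds neither. These matches are descriptions of letters, and the windows are short. The 6 member stretches hold 62.8% to 78.8% G and C, and the shares were not adjusted for base content.

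**Figure D2:**
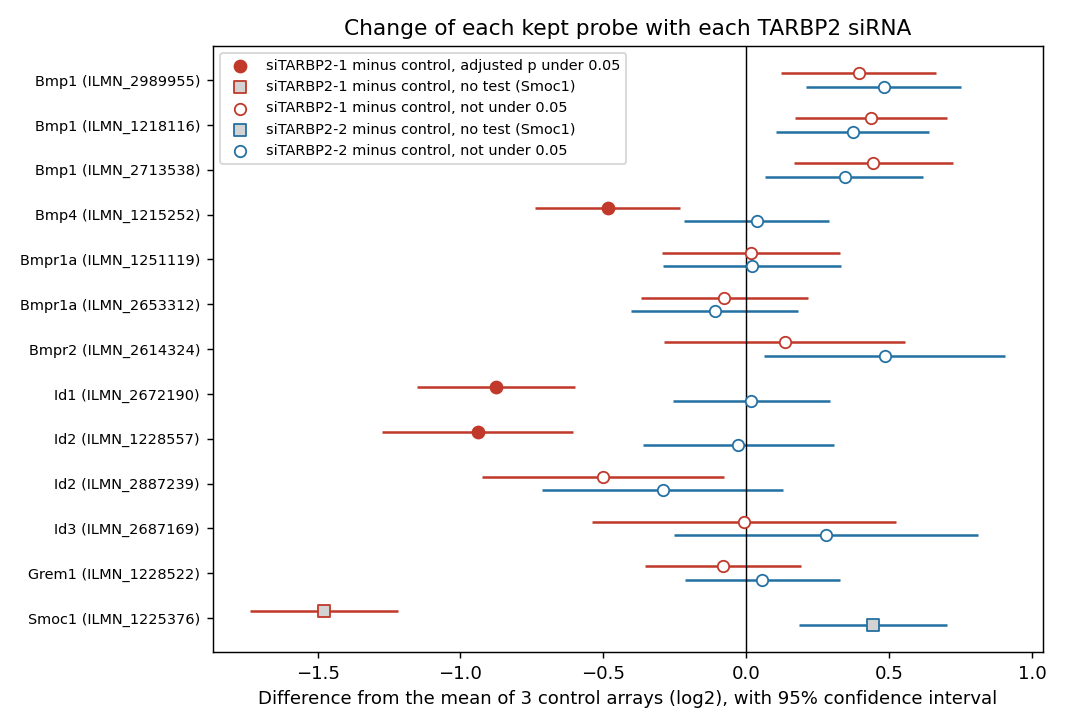
Difference of each siRNA array from the mean of the 3 control arrays (log2, horizontal axis) for the 13 kept probes, with limma's 95% confidence interval. Filled points have an adjusted p under 0.05: they are Id2, Id1 and Bmp4 with siTARBP2-1, at -0.94, -0.88 and -0.49, and no point for siTARBP2-2 is filled. Squares mark Smoc1, given with no test, at -1.48 and 0.45.

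Counted over the genes, siTARBP2-1 had 3 of 8 members lower and 0 higher, where 3.78% of all genes tested were called lower, 3.88% higher and 7.65% in either direction. Since the members were chosen with these arrays' results known, nothing is read from that contrast of shares. Without siControl-2 or siControl-3 the count was 2, because the Bmp4 call ended. The median log2 difference over the 9 measured members, Smoc1 included, was -0.08, beside -0.01 over all genes, and nothing is read from it either. With siTARBP2-2 limma called 0 of 8, where 4.27% of all genes were called. At an unadjusted p under 0.05 there were 2, Bmp1 and Bmpr2, with positive differences, beside 2047 of the 8927 genes tested. The siRNA comparisons share the control arrays. With both siRNAs pooled, limma called 0 of 8 members, where 0.0112% of all genes were called. An unadjusted p under 0.05 was found for 1 member, Bmp1, and for 1152 of the 8927 genes tested. The pooled log2 differences of Smoc1, Id2, Id1 and Bmp4 were -0.52, -0.48, -0.43 and -0.22, with 95% confidence intervals that include 0. The dimmer Id2 probe had a pooled -0.397 with an interval of -0.769 to -0.025 (limma, adjusted p = 0.381).

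Set directly against each other, the siTARBP2-1 and siTARBP2-2 arrays differed for 2 of 8 members, where 7.08% of all genes were called. This sets 1 array against 1 array, with a spread taken from the control arrays. Id1 was lower with siTARBP2-1 by a log2 difference of -0.89 (SE 0.14; limma, adjusted p = 0.0179) and Id2 by -0.91 (SE 0.17; adjusted p = 0.0279). The dimmer Id2 probe ILMN_2887239 had -0.21 and did not pass. Smoc1, chosen by this contrast, had -1.92. Bmp4 had -0.52 and did not pass (limma, adjusted p = 0.0642), but passed under 7 of 15 other settings. Read from the brightest probe of each gene, the median over the 9 measured members, Smoc1 included, was -0.35 beside -0.02 over all genes. Since Smoc1 was chosen by this contrast, nothing is read from that median. The sign of Bmp1 and Bmpr1a depended on the probe: Bmp1 had -0.09, 0.06 and 0.10 on its 3 kept probes, and Bmpr1a -0.01 and 0.03 on its 2. The Id2 call ended without siControl-2 (limma, adjusted p = 0.0517), and its difference was then still -0.91. With siControl-2 also left out of the normalization, Id1 ended as well (limma, adjusted p = 0.0502), which left 0 of the 8 called.

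Other genes of the pathway came from lists of ligands, receptors, modulators, SMADs, targets and E proteins. Of 80 listed genes outside the members, 44 had a kept probe. With siTARBP2-1, 7 of the 44 were lower and 2 higher (background as above), and with siTARBP2-2 1 was lower and 0 higher. With both siRNAs pooled limma called 0, with 8 at an unadjusted p under 0.05, beside 1152 of the 8927 genes tested. Between the siRNAs 6 of the 44 were lower with siTARBP2-1 and 3 higher, where 7.08% of all genes were called. Single control arrays moved the count of 9 for siTARBP2-1: it was 4 without siControl-2 and 15 without siControl-1. The count of 1 for siTARBP2-2 was 0 without siControl-2 and 3 without siControl-1. With no background correction the counts were 16 and 9. The median log2 difference over the 44 genes was -0.18 with siTARBP2-1 and -0.12 with siTARBP2-2.

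Of the 7 lower genes 5 were on the list of targets. Of 12 target genes outside the members, 5 fell and 1 rose with siTARBP2-1, and 1 fell with siTARBP2-2. Of all genes tested, 3.78% were called lower and 3.88% higher with siTARBP2-1, and 4.27% in either direction with siTARBP2-2. With siTARBP2-1 the target median was -0.60 (-0.42 with genes not above background set at their bound), with 9 of 12 below 0. With siTARBP2-2 the target median was -0.19, with 8 of 12 below 0. Smad6, an inhibitory SMAD that BMP signalling induces, had log2 values of 8.19, 8.23 and 8.17 in control, 7.13 with siTARBP2-1 and 7.72 with siTARBP2-2. Both knockdown arrays were below all control arrays, as they were for 15.1% of all genes tested. Smad6 fell by 1.07 with siTARBP2-1 (SE 0.11; limma, adjusted p = 0.00371), and its -0.48 with siTARBP2-2 did not pass (adjusted p = 0.0621). Atoh8, a helix-loop-helix factor, had 7.84, 7.69 and 7.59 in control, 6.42 with siTARBP2-1 and 6.998 with siTARBP2-2. It fell with each siRNA, by 1.29 (limma, adjusted p = 0.00378) and by 0.71 (adjusted p = 0.0399), and the call for siTARBP2-2 ended without siControl-2.

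Hes1 and Hey1, helix-loop-helix repressors that Notch signalling also induces, were lower with siTARBP2-1. Hes1 had 7.37, 7.45 and 7.34 in control, 6.39 with siTARBP2-1 and 7.46 with siTARBP2-2, and fell by 1.00 with siTARBP2-1 (limma, adjusted p = 0.00538). Hey1 had a control mean of 5.94 and dropped to background with siTARBP2-1, which makes it at least 2.05-fold lower. Id4, the ID gene outside the members, was also not above background there and at least 1.23-fold lower. The calls of Hey1 and Id4 (limma, adjusted p = 0.00303 and 0.0172) rest on the values measured at background and do not test these bounds. With siTARBP2-2 the log2 differences of Hes1, Hey1 and Id4 were 0.08, -0.03 and 0.23. Nog, which encodes the antagonist noggin and is itself a target, rose by 0.57 with siTARBP2-1 from a control level that was above background on 1 of 3 arrays.

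**Figure D3:**
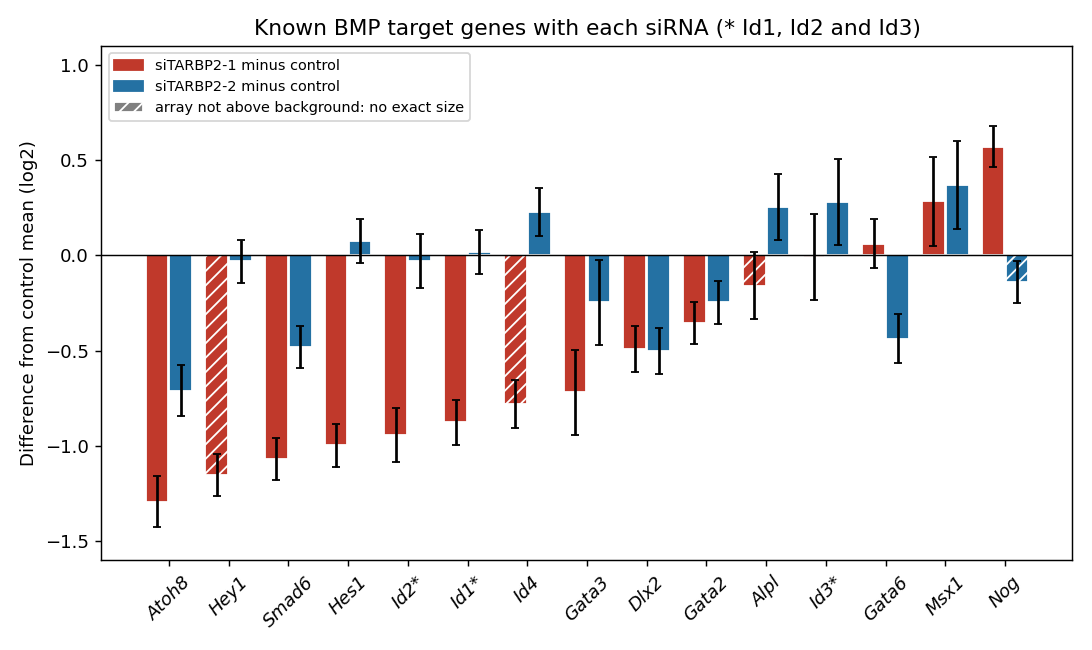
Log2 difference from the control mean (vertical axis) of 12 further BMP target genes and of Id1, Id2 and Id3, marked with asterisks, for siTARBP2-1 (red) and siTARBP2-2 (blue), with limma's SE as error bars. Hatched bars come from an array where the gene was not above background and have no exact size, as for Hey1 and Id4 with siTARBP2-1. Atoh8, Smad6, Hes1, Id2 and Id1 lie between -1.29 and -0.88 with siTARBP2-1 and between -0.71 and 0.08 with siTARBP2-2.

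Of 12 SMADs and regulators 1 fell with siTARBP2-1, Smad6, and 1 rose, Tob1, which restrains SMAD activity (0.69, limma, adjusted p = 0.0405). With siTARBP2-2 0 were called, with 3 at an unadjusted p under 0.05, beside 2047 of the 8927 genes tested. Smad4, the shared partner SMAD, had -0.36 and -0.06, the SMAD phosphatases Ppm1a -0.12 and 0.04 and Ctdsp2 0.10 and -0.39, for siTARBP2-1 and siTARBP2-2, and none of these passed. Of 9 receptors and co-receptors 1 fell with siTARBP2-1: Neo1, which encodes neogenin, a receptor for repulsive guidance molecules, at 11.12, 11.36 and 11.25 in control, 10.53 with siTARBP2-1 and 11.54 with siTARBP2-2. Its log2 difference was -0.72 (limma, adjusted p = 0.0239). The type I receptor Acvr1 had -0.11 and 0.10 and the co-receptor Tgfbr3 -0.18 and -0.23 with siTARBP2-1 and siTARBP2-2. Of 8 secreted modulators, the antagonist Nbl1 fell with siTARBP2-1 by 0.64 (limma, adjusted p = 0.0262) and Nog rose. Nbl1 had 0.51 with siTARBP2-2, and its log2 difference between the siRNAs was -1.15. Twsg1, which binds BMPs together with chordin, was higher with siTARBP2-1 than with siTARBP2-2 by 0.79 (limma, adjusted p = 0.0231). Of 14 other ligands 3 had a kept probe, all of them dim, namely Bmp5, Bmp8a and Gdf5. With either siRNA 0 were called, with 2 at an unadjusted p under 0.05 for each. Over all 8927 genes tested there were 2206 such genes with siTARBP2-1 and 2047 with siTARBP2-2. The E proteins Tcf4 and Tcf12, partners of ID proteins, had -0.06 and -0.22 with siTARBP2-1 and did not pass.

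The most alike genes were sought for the members whose range over the arrays was above 1 on the log2 scale, by the Euclidean distance between profiles of 5 arrays, each centred on its mean. For Id2 the nearest of all genes was Id1 (distance 0.127), followed by Itpk1 (0.136) and Chst14 (0.145). For Smoc1 these were Ino80e (0.291), H1f10 (0.294) and Nr6a1 (0.338), each with its lowest value on siTARBP2-1 and its highest on siTARBP2-2. These genes share the arrays and their normalization with the members.

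In the authors' deposited table, which gives 1 log2 fold change per RefSeq accession for knockdown against control and marks higher accessions, Bmp1 had 0.26 and was marked as higher. Of its 18744 accessions 1625 were marked, and the marks come from these same arrays. In the authors' deposited table the values of Id1, Smoc1, Id2 and Bmp4 were -0.39, -0.32, -0.23 and -0.22, and Id3 had 0.10. That table does not separate the siRNAs. The authors' normalized intensities were also compared as the difference of log2 means over both knockdown arrays, averaged over each gene's probes. They gave -0.40, -0.42, -0.32 and -0.22 for Id1, Smoc1, Id2 and Bmp4, so the scale of the table is not known exactly for dimmer genes. The brightest Id2 probe alone had -0.42 on these intensities.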

How the data were processed

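Biotin-labelled total RNA was read on Illumina BeadChips, per the labels' protocols. The authors deposited non-normalized intensity values with a detection p-value per probe and array, quantile normalized intensity values, and a table of log2 fold change values with a score of 1 for accessions marked as higher. The submitters' processing notes name lumi, with no version. In the deposited tables, detection p-values follow the signals on 4 arrays (Spearman -0.961 to -0.967) but not on siTARBP2-2 (0.000598), where each probe took the average p-value that its signal rank has elsewhere.

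Signals were background corrected against a negative control level derived from detection p-values (offset 16), taken to log2 and quantile normalized, as in neqc of limma 3.58.1 in R 4.3.3. Kept were the 13123 of 25697 probes that reached a detection p under 0.05 on 2 or more arrays. Gene names come from GEO's platform annotation: 23978 probes have 1 symbol and 1719 have none. A gene is read from its kept probe with the highest mean. limma's lmFit and eBayes (two-sided) compared the pooled knockdown with control, and, with a coefficient for each siRNA, each siRNA with control and with the other. That second fit has 2 residual degrees of freedom, all from the 3 control arrays, so a single siRNA array is taken to vary as these do. p-values were adjusted by Benjamini-Hochberg over all kept probes (threshold 0.05). The test was tried on simulated data first. The number of arrays limits the precision. Members, gene lists and alternatives were chosen with earlier results of these data known. Named pathway genes are those called with either siRNA or between them, up to 8 per comparison, and the 3 brightest ligands, receptors and SMAD genes.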

Additional observations from a re-analysis of the deposited data

Results flagged for a closer look

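With limma's test of the difference between the siRNAs, 2 members passed. Id1 was lower with siTARBP2-1 than with siTARBP2-2 by a log2 difference of -0.89 (adjusted p = 0.0179) and Id2 by -0.91 (adjusted p = 0.0279). On its dimmer probe Id2 had -0.21 and did not pass. Smoc1 had -1.92 and was chosen on this difference, so its value is a description. Each siRNA has 1 array, and the spread in this test comes from the 3 control arrays, so the test compares these arrays and does not hold the spread of either siRNA. Groups of 2 and 3 arrays are too small for a test of single outlying arrays.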

How the results depend on the processing

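Another 15 settings were tried, and 3 more were chosen after seeing the data, which left out a control array before normalization too; none turned the direction of a called member. Against control, the siTARBP2-1 calls of Id1 and Id2 held under all 15 settings with a siTARBP2-1 comparison, with log2 differences of -1.02 to -0.82 and -1.06 to -0.72. The counts of members that follow leave out Smoc1, which was chosen on these arrays. The siTARBP2-1 count of 3 was 2 to 3 with single control arrays left out. It was 4, with Bmp1 added, with no background correction, an offset of 50, the series matrix values or a trended robust prior. For siTARBP2-2 the count of 0 became 1, Bmp1, with no background correction, an offset of 50 or the series matrix values. The same held with probes detected on all 5 arrays and with a trended robust prior. With control arrays left out the siTARBP2-2 count was 0 to 1. Between the siRNAs the 2 calls became 0 to 2 with control arrays left out and 3, with Bmp4 added, under 6 settings. Id2 missed the threshold without the filter on dim probes and over the mean of its probes. The pooled comparison without siTARBP2-2 is the siTARBP2-1 comparison, and without siTARBP2-1 it is the siTARBP2-2 comparison. Over all genes, the count called was 683 for siTARBP2-1 (257 without siControl-2, 1220 with no background correction), 381 for siTARBP2-2 (58 and 954) and 632 between the siRNAs (271 and 1261), and the pooled count of 1 became 11 with median scaling. Other pathway genes called were 16 in place of 9 for siTARBP2-1 and 9 in place of 1 for siTARBP2-2 with no background correction, an offset of 50 or the series matrix values. Median scaling moved the median of all genes for siTARBP2-1 by -0.11, and Bmp4 then had -0.61.

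The labels number arrays in both groups, and deviations of same-numbered arrays had correlations of -0.0486 and -0.0267 across probes. In the knockdown group the number marks the siRNA, so these correlations cannot show whether same-numbered arrays belong together. With the replicate block the pooled count of members was 0, and 0 of all genes were called. No slide or scan date is in the files used here, so that alternative was not run. Probes near background, those of Bmpr2 and Grem1, cannot show moderate changes.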
